A study of Mus musculus with 8 samples.

Results

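The cytosolic ribosomal proteins described here are the genes named Rpl or Rps with a number and at most 1 letter a, x or l, together with Rplp0, Rplp1, Rplp2 and Rpsa. Kinases and rows named as pseudogenes were left out. This gave 83 of 35087 named gene rows, 51 for the large and 32 for the small subunit. RNA came from granulosa cells, the somatic cells around the oocyte, cut from mouse ovary sections by laser microdissection and amplified by Smart-seq2. Both groups were Hif1a flox/flox, an allele open to excision by Cre recombinase. In the 2 cKO libraries the mice had Foxl2-CreERT2 in addition, a Cre that tamoxifen activates and that the granulosa cell gene Foxl2 drives. In the 6 WT libraries they had no Cre. Tamoxifen (100 mg/kg, once a day on 5 days) was started at 3 weeks of age in either group, and 7 days passed between the final dose and collection of the ovaries. The genotype label calls the cKO samples a knockdown, and the descriptions give all 8 samples a library name that begins with cKO, so groups follow the titles. No label ties a library to an animal or a follicle, so p-values measure only the spread between these libraries.

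Each cytosolic ribosome is built from a small subunit, which decodes the mRNA, and a large subunit, which joins amino acids and holds the exit tunnel. Most of its proteins are needed in equal numbers, and many of their mRNAs begin with a run of pyrimidines, the 5′ terminal oligopyrimidine (TOP) motif, through which mTOR signalling controls their translation. In the follicle, granulosa cells multiply and make large amounts of secreted protein as the follicle grows.

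Depth was uneven. Reads on named genes were 2054584 and 651426 in cKO 1 and cKO 2, and between 1594803 and 4719293 in WT. Genes with 5 or more reads numbered 12847 and 12120 in cKO against 13597 to 14727 in WT, and the mitochondrial genome took 8.87% and 10.5% of reads in cKO against 1.42% to 3.65% in WT. The excised gene, Hif1a, had 22.3 and 13.7 CPM (reads scaled to a fixed library total) in cKO, below the 35.5 to 106.2 CPM of the WT libraries, and reads outside the excised part count toward it. All 12 granulosa markers had reads in every library. Their summed level was 6015 and 2207 CPM in cKO 1 and 2, 4214 and 9928 CPM in WT 1 and 2, and from 22933 to 68736 CPM in WT 3 to 6. Stroma markers summed to 372 to 1341 CPM in cKO and 16.6 to 1002 CPM in WT. For endothelial markers these ranges were 276 to 298 and 88.2 to 432 CPM, for theca 145 to 216 and 41.7 to 270 CPM, for blood 76.5 to 440 and 22.5 to 371 CPM, and for smooth muscle 92.9 to 614 and 26.2 to 459 CPM. The 11 oocyte markers summed to 35.5 to 58.4 CPM in cKO and 10.2 to 2073 CPM in WT, and Dppa3 was at 0 in both cKO libraries. The part of depth, mitochondrial share and cell make-up in the results below was not tested.

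The first comparison was the share of all reads on the 83 members. cKO 1 had 9.77% and cKO 2 had 3.44%. WT 1 to 6 had 8.17%, 14.4%, 9.17%, 9.86%, 10.4% and 9.53%. Thus cKO 1 lay inside the WT range, cKO 2 lay below each WT library, and WT 2 stood above the others. The group means were 6.60% ± 4.48 (SD, n = 2) in cKO and 10.2% ± 2.15 (SD, n = 6) in WT. The 95% Wilson interval for cKO 2 was 3.39% to 3.48%, counting error only. The log2 ratio of the group means was -0.63, and it was -0.07 without cKO 2 and -1.58 without cKO 1. In bulk samples, fewer cells of a type and less RNA per cell cannot be told apart.

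**Figure D1:**
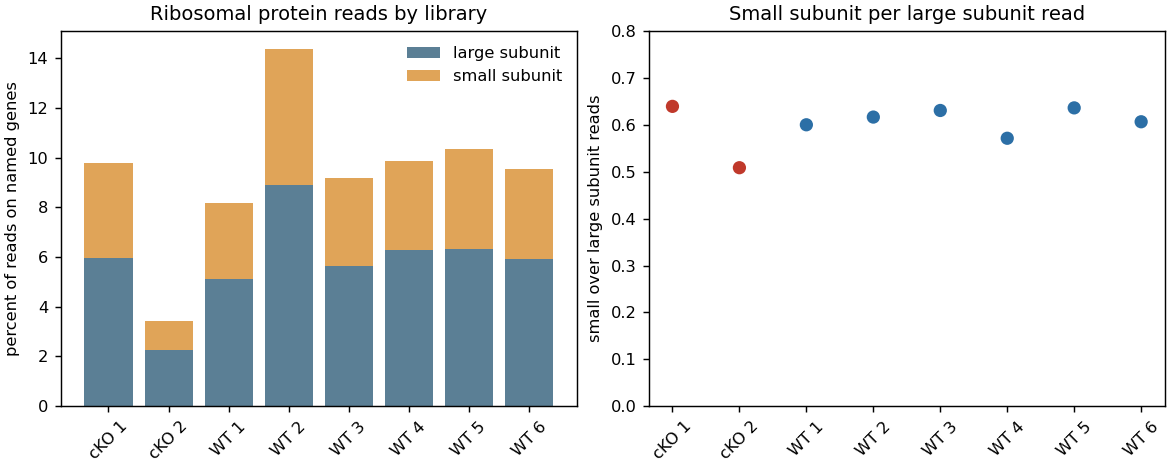
Left, percent of reads on named genes that fell on large (blue-grey) and small (orange) subunit members, stacked, in each of the 8 libraries. Right, small subunit reads per large subunit read, with cKO in red and WT in blue; cKO 2 is lowest in both panels, at 3.44% and 0.509.

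The subunits moved together across libraries. Large subunit members took 5.96% and 2.28% of reads in cKO 1 and 2, and from 5.10% to 8.89% in WT. Small subunit members took 3.81% and 1.16% in cKO, and from 3.06% to 5.48% in WT. The number of small subunit reads per large subunit read was 0.640 in cKO 1 and 0.509 in cKO 2, against 0.572 to 0.637 in WT (mean 0.611 ± 0.023, SD, n = 6). In reads, the 2 cKO libraries thus lay on opposite sides of the WT range, cKO 1 just above it and cKO 2 below. The difference in log2 of this ratio between the group means was -0.10, and without cKO 2 it turned to 0.07. In deposited TPM (a per-length measure) the ratio was 0.624 and 0.489 in cKO and 0.572 to 0.689 in WT. By that measure cKO 1 lay inside the WT range, and only cKO 2 lay outside it.

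Member by member, 79 of the 83 had enough reads to test. In edgeR's quasi-likelihood test no member and no gene of the 15102 tested passed an adjusted p of 0.05, so the share called over all genes was 0%, and the smallest adjusted p of a member was 0.369. At an unadjusted p below 0.05, 8 of 79 members were lower in cKO and 0 were higher, while 8.89% of all tested genes were lower at that level. DESeq2 called 4 members lower, namely Rpl41, Rplp0, Rpl4 and Rps4x, and 3.08% of the genes for which it gave an adjusted p. limma called 0 members with voom and quality weights and 0 on log2(TPM + 1). At an unadjusted p below 0.05, 33 members were lower with voom (6.81% of all genes) and 22 on log2(TPM + 1) (8.89%). With the replicate number as a block in edgeR, 0 were lower (0.795% of all genes). There WT 3 to 6 each stood alone under their number, so only the libraries numbered 1 and 2 informed the difference. Few genes could reach that level in such a fit, so its 0 says little about the members. In the edgeR fit without a block, the log2 fold change was below 0 in 75 of 79 members, against 52.7% of all tested genes. All 32 small subunit members and 43 of 47 large subunit members had this sign. The median was -0.62 in the large and -0.85 in the small subunit, beside -0.08 over all tested genes.

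These medians rested on cKO 2. It was the lowest of the 8 libraries in 75 of 79 members and lay below each WT library in 74, against 24.5% of all tested genes. The 5 members in which it lay inside the WT range were Rpl12, Rpl14, Rpl36, Rpl38 and Rpl39l, all of the large subunit. In cKO 1, by contrast, 78 of 79 members lay within the WT range, against 70.5% of all tested genes. The exception was Rps4l. It was also the only member whose groups did not overlap in CPM, 1 of 79. Of all tested genes, 6.41% were lower in cKO without overlap. Relative to the mean of WT, the median member stood at -0.03 (log2) in cKO 1 and at -1.94 in cKO 2. Over all tested genes these medians were -0.21 and -0.19. Among WT libraries, each set against the mean of the other 5, the median member ran from -0.69 in WT 1 to 0.86 in WT 2. There the medians over all tested genes were -0.19 and -0.16. The members of these WT libraries thus differed by more than those of cKO 1 did from WT. WT 2 was the highest library for 61 of 79 members. Without cKO 2 the medians were -0.08 in the large and -0.21 in the small subunit, and 50 of 80 members tested were lower. The median over all genes was then -0.34, below that of the members, and 0 members but 3.50% of all genes were lower at an unadjusted p below 0.05 in edgeR. Without cKO 1 the medians were -1.91 and -2.32, beside -0.27 over all genes, and 52 members and 10.2% of all genes were lower at that level. In each case the lone cKO library was assumed to vary like the WT libraries. With the number of genes detected per library in the edgeR fit, 59 of 79 members were lower and their median was -0.20, beside -0.26 over all genes. The number of detected genes was lower in each cKO library than in each WT library. That fit therefore cannot tell it apart from genotype.

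**Figure D2:**
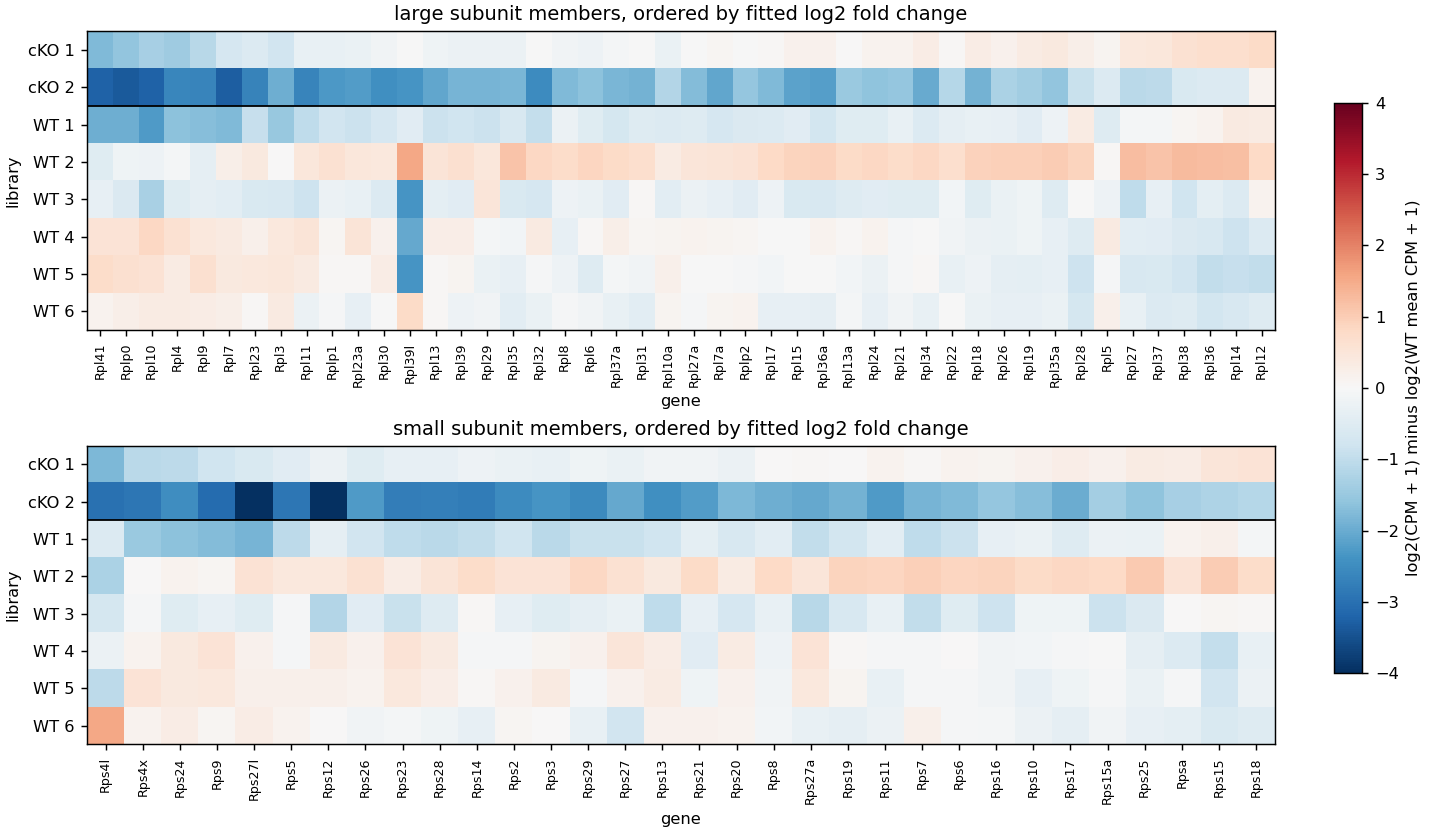
Each cell gives log2(CPM + 1) of a tested member in a library minus the log2(CPM + 1) of its WT mean, with blue lower and red higher; the upper panel holds 46 large and the lower 32 small subunit members, ordered by fitted log2 fold change. The cKO 2 row is blue almost throughout, the cKO 1 row is pale with a median of -0.03, and the WT 2 row is red for most members.

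Among the large subunit members, the stalk that recruits translation factors consists of Rplp0 and of Rplp1 and Rplp2, which bind to it. Rplp0 (chr5:115559467-115563727, plus strand) had 828 and 242 CPM in cKO 1 and 2. In WT it had 633 (WT 1) as the lowest, 2559 as the median and 3828 (WT 5) as the highest. Only cKO 2 lay below all WT libraries, since cKO 1 was above WT 1. The means were 535 ± 415 CPM (SD, n = 2) and 2478 ± 1231 CPM (SD, n = 6). The fitted log2 fold change was -2.21 ± 0.82 (SE; adjusted p = 0.369 in edgeR and 0.0244 in DESeq2). Rplp1 (chr9:61913284-61914542) had 1524 and 378 CPM in cKO, and 1104, 1855 and 2841 CPM as the lowest, median and highest WT values. The fitted difference was -0.97 ± 0.65 (SE, log2). Rplp2 (chr7:141447370-141451585) had 876 and 302 CPM in cKO, and 591, 900 and 1336 CPM in WT in the same order, with a log2 fold change of -0.60 ± 0.56 (SE). For both, cKO 1 sat within the WT range. The 3 stalk members were lower together, by a median of -0.97, beside -0.62 in the large subunit. The stalk median was -0.35 without cKO 2.

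Rpl41 (chr10:128548114-128549305, minus strand), a very short basic protein at the interface of the subunits, had 913 and 333 CPM in cKO 1 and 2. In WT it ran from 804 CPM in WT 1 over a median of 2971 CPM to 5200 CPM in WT 5. WT 1 again lay below cKO 1. The log2 fold change was -2.32 ± 0.82 (SE; adjusted p = 0.369 in edgeR and 0.0142 in DESeq2), and -1.85 without cKO 2.

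Near the peptidyl transferase centre and the exit tunnel, 7 of 7 members were lower, beside 43 of 47 large subunit members. The median of the 7 was -0.84, beside -0.62 in the subunit, and it was -0.30 without cKO 2. Rpl4 (chr9:64173375-64178666, plus strand), whose long loop lines the tunnel, had 854 and 373 CPM in cKO against 728, 2507 and 3465 CPM as the lowest, median and highest in WT. Its groups overlapped through WT 1. The log2 fold change was -1.90 ± 0.73 (SE; adjusted p = 0.374 in edgeR and 0.0282 in DESeq2), and -1.50 without cKO 2. Rpl13 and Rpl13a, structural proteins of the large subunit, were among its most abundant mRNAs per length. Rpl13a (chr7:45125558-45128761, minus strand), which is also known outside the ribosome for silencing selected mRNAs in immune cells, had 3010 and 1057 CPM in cKO and from 2048 to 5001 CPM in WT. The log2 difference of -0.54 ± 0.64 (SE) became -0.03 without cKO 2.

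Rpl5 and Rpl11 bind 5S ribosomal RNA, and free Rpl5 and Rpl11 restrain Mdm2, the ubiquitin ligase of p53. Rpl11 (chr4:136028265-136053428, minus strand) had 968 and 188 CPM in cKO, against 581, 1267 and 1689 CPM as the lowest, median and highest WT values. The log2 fold change was -1.03 ± 0.70 (SE), and -0.36 without cKO 2. With the near-identical copies described below added, it was -0.80 ± 0.67 (SE). Rpl5 (chr5:107900502-107909005, plus strand) had 75.1 and 46.4 CPM in cKO, and from 47.8 to 89.2 CPM in WT. It differed by -0.17 ± 0.41 (SE) on the log2 scale, a value that the copies described below alter.

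The large subunit also held the 4 members with a fold change above 0. Rpl36 (chr17:56613416-56614243, plus strand) had 3165 and 1374 CPM in cKO. In WT it was 4752 CPM in WT 2, 2223 CPM in WT 1 and between 1012 and 1533 CPM in WT 3 to 6. Rpl14 (chr9:120571444-120574654, plus strand) had 3567 and 1533 CPM in cKO. Its WT values were 5129 CPM in WT 2, 2905 CPM in WT 1, and from 1177 to 1545 CPM in WT 3 to 6. In both genes, cKO 1, WT 1 and WT 2 held the 3 highest values, so the groups were interleaved. The log2 fold changes were 0.18 ± 0.68 (SE) for Rpl36 and 0.18 ± 0.69 (SE) for Rpl14, and without cKO 1 they were -0.60 and -0.61. Rpl12 (chr2:32961559-32965345, plus strand), which lies at the base of the stalk, had 181 and 118 CPM in cKO and from 53.4 to 187 CPM in WT, and differed by 0.49 ± 0.49 (SE) on the log2 scale. Rpl38 was at 0.12. None of these 4 differences passed a test, and the sign for Rpl12 depended on the rows counted, as described below.

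In the small subunit, 6 of 6 members of the head and mRNA path were lower, as were all 32 small subunit members. The median of the 6 was -0.90, beside -0.85 in the subunit, and it was -0.32 without cKO 2. Rpsa (chr9:120127689-120132369, plus strand), a small subunit protein also known as a laminin receptor, had 3862 and 1268 CPM in cKO, against 2182, 3161 and 4591 CPM as the lowest, median and highest in WT. cKO 1 was higher than 5 of the 6 WT libraries, and cKO 2 was lower than all of them. The log2 fold change of -0.31 ± 0.62 (SE) turned to 0.23 without cKO 2. Rps6 (chr4:86854660-86857412, minus strand), the substrate of the S6 kinases downstream of mTOR, had 1536 and 411 CPM in cKO, and 770, 1350 and 2525 CPM in WT in the same order. Its log2 fold change of -0.52 ± 0.64 (SE) turned to 0.08 without cKO 2.

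Rps4x (chrX:102184941-102189394, minus strand), the X-linked gene of an rRNA-binding protein of the small subunit, was the small subunit member that DESeq2 called. It had 508 and 142 CPM in cKO, and in WT 382 CPM in WT 1 and from 1029 to 1549 CPM in WT 2 to 6. cKO 1 was therefore higher than WT 1 and lower than the other 5. The log2 fold change was -1.71 ± 0.68 (SE; adjusted p = 0.376 in edgeR and 0.0467 in DESeq2), and -1.14 without cKO 2. Rps24 (chr14:24487125-24496959, plus strand), which takes part in 18S rRNA maturation, had 426 and 159 CPM in cKO, against 280, 1025 and 1170 CPM as the lowest, median and highest in WT. It differed by -1.59 ± 0.67 on the log2 scale (SE, adjusted p = 0.380 in edgeR). Rps27a (chr11:29545846-29548109, minus strand), which is made as a fusion with ubiquitin, had 1908 and 448 CPM in cKO and from 856 to 2698 CPM in WT. The log2 difference of -0.65 ± 0.71 (SE) became -0.02 without cKO 2.

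At the other end of the small subunit's order, Rps15 (chr10:80292453-80294114, plus strand), a protein near the decoding site, had 2829 and 858 CPM in cKO and from 1030 to 4077 CPM in WT. Rps18 (chr17:33951999-33956001, minus strand), a protein of the head, had 2825 and 886 CPM in cKO and from 1345 to 3266 CPM in WT. Their log2 fold changes were -0.12 ± 0.68 (SE) and -0.07 ± 0.60 (SE), and without cKO 2 they turned to 0.46 and 0.49. For Rps18 the sign also turned under DESeq2's size factors, to 0.01.

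**Figure D3:**
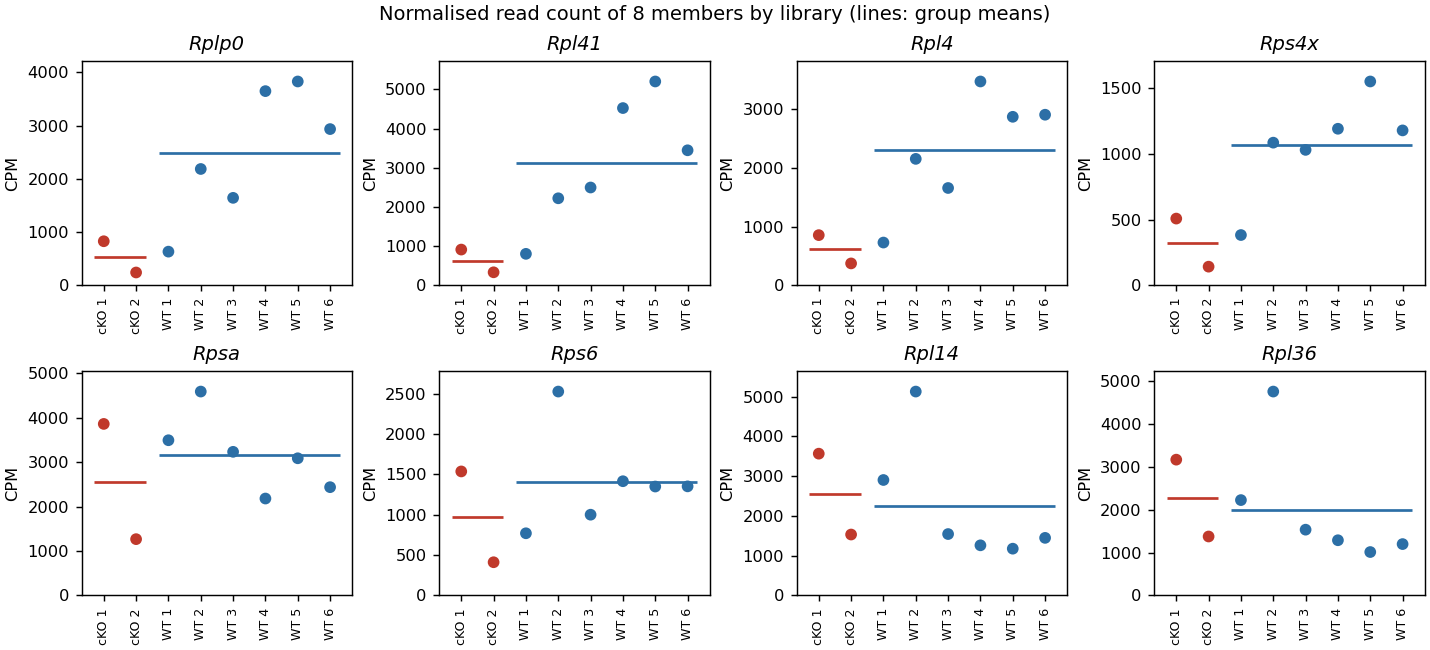
Normalised read count (CPM after TMM scaling, linear axes from 0) of 8 members in each library, cKO in red and WT in blue, with lines at the group means. In the upper row WT 1 lies beside or below cKO 1; in the lower row the groups interleave except that cKO 2 is lowest for Rpsa and Rps6.

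The rule also caught paralogs known for restricted expression. Rpl3l, of striated muscle, and Rpl10l, of testis, had 0 reads in all 8 libraries, which allows up to 3 reads, or 0.636 to 4.61 CPM per library. Rpl39l, of male germ cells, had 4.06 and 0 CPM in cKO and from 0 to 13.9 CPM in WT, highest in WT 2 and WT 6, the libraries with the largest sums of oocyte markers (571 and 2073 CPM). Rps4l (chr6:148354656-148355598, plus strand), an autosomal relative of Rps4x that the annotation calls a transcribed processed pseudogene, had 10.7 and 4.10 CPM in cKO from 21 and 3 reads. In WT it was at 117 CPM in WT 6 and from 15.6 to 33.1 CPM in the other 5. The groups did not overlap, and the difference was -2.32 ± 0.89 on the log2 scale (SE; adjusted p = 0.374 in edgeR and 0.104 in DESeq2). Rps27l (chr9:66946086-66949516, plus strand), a relative of Rps27 and a known p53 target, had 205 and 15.03 CPM in cKO, against 85.2, 358 and 475 CPM as the lowest, median and highest in WT. Here the log2 difference of -1.50 ± 0.82 (SE) became -0.68 without cKO 2. Rpl32l and Rpl6l, both annotated as processed pseudogenes, were the other members too low to test, at no more than 8 and 6 reads in any library.

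Levels between members can be compared only per length, for which the deposited TPM were used. The lengths that these TPM imply in WT 2 had a median of 481 bases over 78 members. They were 158 bases for Rps27, 194 for Rps28 and 199 for Rps29, so the ranks of such short mRNAs rest on that correction. Among the tested members, mean TPM over the 8 libraries was lowest for Rpl39l, at 4.80, and had a median of 1905, and 63 of 79 tested members were above 1000 TPM. Among the most abundant of the large subunit were Rpl36 at 8639 TPM, Rpl41 at 6802 TPM, Rpl13a at 6532 TPM and Rpl13 at 5170 TPM. Neighbours in this order overlapped between libraries, for example 4759 to 14779 TPM for Rpl36 and 1125 to 14157 TPM for Rpl41. In the small subunit the order began with Rps27 at 5695 TPM, Rps15 at 5637 TPM, Rps29 at 5382 TPM, Rps18 at 4641 TPM and Rps28 at 4502 TPM. Rps27 and Rps29 are zinc-binding proteins and Rps28 is a short protein near the mRNA exit. Their ranges over libraries, 1969 to 8535 TPM for Rps27 and 1356 to 8029 TPM for Rps29, also overlapped. The CPM of these 3 followed the same pattern, with cKO 2 below all WT libraries and cKO 1 inside their range, and log2 fold changes of -0.90, -0.90 and -1.06 for Rps27, Rps29 and Rps28.

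Because cKO 2 was low in nearly every member, the make-up of the ribosomal protein mRNA pool was also described with each member as a percent of its library's own member reads. Rpl41 made up 0.896% and 1.09% in cKO 1 and 2, 1.12% and 1.31% in WT 1 and 2, and 3.00%, 4.02%, 4.80% and 3.59% in WT 3 to 6. Rplp0 followed with 0.813%, 0.790%, 0.884% and 1.29% in the libraries numbered 1 and 2, and 1.97%, 3.24%, 3.53% and 3.06% in WT 3 to 6. Rpl14 ran the other way, at 3.50%, 5.01%, 4.06% and 3.03% against 1.85%, 1.12%, 1.09% and 1.51%. For these 3 members, WT 1 and 2 were on the side of cKO 1 and 2, and WT 3 to 6 were on the other. Over the 79 tested members, both cKO shares lay above all WT shares in 6 and below them in 6, Rpl41 and Rplp0 among the latter. In CPM over all tested genes, the groups did not overlap in 6.41% (lower in cKO) and 6.02% (higher). Rpl36, at 3.11%, 4.49%, 3.11% and 2.81% in the libraries numbered 1 and 2 and 1.84%, 1.14%, 0.934% and 1.25% in WT 3 to 6, was also higher in each of the former. Shares of 31 members differed more than 2-fold between their highest and lowest library, and the median over the 76 members with 10 or more reads in every library was 1.92-fold.

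Distance between 2 libraries was taken as the SD, over those 76 members, of the differences in log2 share. It was 0.25 between cKO 1 and WT 1, 0.27 between cKO 1 and WT 2, and 0.20 between WT 4 and WT 5. Between cKO 1 and WT 4 it was 0.81, and the largest, 1.09, lay between cKO 2 and WT 5. In make-up, cKO 1 was thus closer to WT 1 and WT 2 than to cKO 2, from which it differed by 0.49. cKO 2 was closest to WT 1, at 0.40. These values describe libraries and are not a test. The summed granulosa markers given above separate the libraries numbered 1 and 2 from WT 3 to 6, but not every marker does. Base composition also varied with library. For each of the 76 members, the log2 share was taken relative to that member's own mean over the 8 libraries. Spearman's rho between this deviation and GC content of the coding transcripts was between 0.11 and 0.25 in cKO 1 and 2 and WT 1 to 3. It was between -0.33 and -0.22 in WT 4 to 6. With each member's mean taken out, these signs compare libraries with each other and do not say which members hold larger shares. These are descriptions over members of the same libraries, and the part of GC content in the make-up was not tested.

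**Figure D4:**
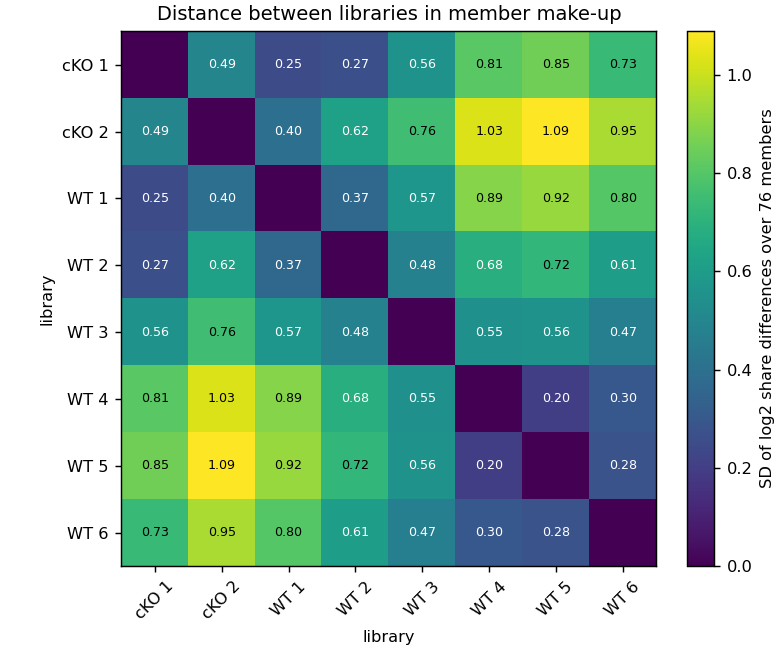
SD of the differences in log2 share over 76 members for each pair of the 8 libraries; dark means alike and bright means far apart. cKO 1, WT 1 and WT 2 form a dark block with values of 0.25 to 0.37, WT 4 to 6 form another with 0.20 to 0.30, and cKO 2 is farthest from WT 4 to 6.

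Sequences around the annotated transcription start, where the pyrimidine run of TOP mRNAs lies, are shown for 7 members. They mark the ends of this order or carry a pyrimidine run by the rule below. RefSeq windows on GRCm38.p6 matched 61 of the 83 members. Each line gives 40 bases before the start and 20 from it, 5′ to 3′. Capitals mark a stretch of 5 or more pyrimidines read from a C within 5 bases of the annotated start, and lines without capitals have none. The pyrimidine tract itself can begin farther upstream, as it does for Rpl14. In Rpl4 a long run of pyrimidines lies just upstream of the annotated start and is not marked by this rule.
Rplp0, chr5:115559427-115559486, plus strand: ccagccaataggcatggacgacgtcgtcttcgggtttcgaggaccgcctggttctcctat
Rpl41, chr10:128549149-128549208, minus strand: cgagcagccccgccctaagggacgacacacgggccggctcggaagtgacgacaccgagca
Rpl4, chr9:64173347-64173406, plus strand: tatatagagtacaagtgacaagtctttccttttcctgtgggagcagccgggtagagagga
Rpl14, chr9:120571477-120571536, plus strand: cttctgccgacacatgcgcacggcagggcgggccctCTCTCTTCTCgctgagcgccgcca
Rps6, chr4:86857348-86857407, minus strand: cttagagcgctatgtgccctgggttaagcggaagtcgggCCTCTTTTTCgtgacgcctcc
Rps18, chr17:33955646-33955705, minus strand: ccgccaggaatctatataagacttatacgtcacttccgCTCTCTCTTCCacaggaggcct
Rpl13a, chr7:45128726-45128785, minus strand: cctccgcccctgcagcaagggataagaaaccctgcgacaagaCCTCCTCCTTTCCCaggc

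Such a stretch was found for 29 of 61 members (47.5%), against 21.2% of 27025 genes with windows. It depends on where the start is annotated. A window without it says only that no such stretch begins at a C near that start, and not that the mRNA lacks the TOP motif. The median log2 fold change was -0.58 in the 28 tested members with one and -0.72 in the 30 without. Over the whole 300-base window on both strands, TTCCGG occurred in 54.1% of members and 16.7% of genes. GGAAGT, which can overlap it within ccggaagt, occurred in 49.2% and 26.5%, and TATAAA in 11.5% and 15.7%. A match is a description of the sequence, not a site.

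Ribosomal protein genes have many processed copies in the genome, and estimated counts can be divided between a gene and a copy of identical sequence. By BLAST, 585 other rows held a transcript at least 95% identical to a member over 150 bases and 50% of the length of that transcript, away from the member's own locus. They belonged to 73 members, and 154 of the rows had no read in any library. Together they held from 7.88% to 10.6% as many reads as the members themselves, with 8.71% and 9.49% in cKO 1 and 2. Among members with reads of their own, the copies held more than 50% of the reads of the gene and its copies together for 7 and more than 10% for 15. The values of these members alone are therefore uncertain.

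Among members with reads of their own, the largest such copy share was for Rpl5. The member had 1709 reads over all libraries, and Gm15500 (chr7:114705217-114706235, minus strand), identical to it over 1018 bases and annotated as a transcribed processed pseudogene, had 26212. Gm15500 stood at 635 and 146 CPM in cKO, against 396 to 1465 CPM in WT. With the copies added, Rpl5 had 713 and 194 CPM in cKO, 444 CPM in WT 1 and from 1003 to 1532 CPM in WT 2 to 6, so cKO 2 was lowest and WT 1 lay below cKO 1. Its log2 fold change moved from -0.17 to -1.35 ± 0.66 (SE; edgeR adjusted p = 0.424). Rpl12 had 2558 reads, and Gm10275 (chr10:29698746-29699380, minus strand), identical over 634 bases, had 14661. With its copies Rpl12 had 898 and 307 CPM in cKO and from 557 to 1218 CPM in WT, and its log2 fold change went from 0.49 to -0.27 ± 0.54 (SE). Its sign is therefore not determined by these data.

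Rpl10, an X-linked gene whose protein joins the large subunit late in assembly, was chosen for description after its values were seen. The member itself had 27165 reads, and Rpl10-ps3 (chr9:50344201-50344968, minus strand), annotated as protein coding, had 28866. Alone, Rpl10 had 434 and 115 CPM in cKO and from 226 to 1919 CPM in WT, and with its copies 1591 and 391 CPM in cKO and from 1008 to 2977 CPM in WT. Its log2 fold change was -1.97 ± 0.85 (SE) alone and -1.24 ± 0.69 (SE) with the copies, so that it no longer reached an unadjusted p below 0.05 in edgeR (0.0948). Rps12, also chosen after its values were seen, had 6 reads in cKO 2 and 8.20 CPM there, against 68.2 to 212 CPM in WT. With its copies it had 721 and 220 CPM in cKO and 493 to 1062 CPM in WT, and the log2 fold change went from -1.11 to -0.48. Over all members, adding the copies left 76 of 79 lower and 0 past the adjusted threshold of edgeR. At an unadjusted p below 0.05 in edgeR, 7 members were lower, beside 8.90% of all genes in that fit. The median log2 fold change was -0.71 in members and -0.08 over all genes. Rpl12 was the 1 member whose sign changed.

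**Figure D5:**
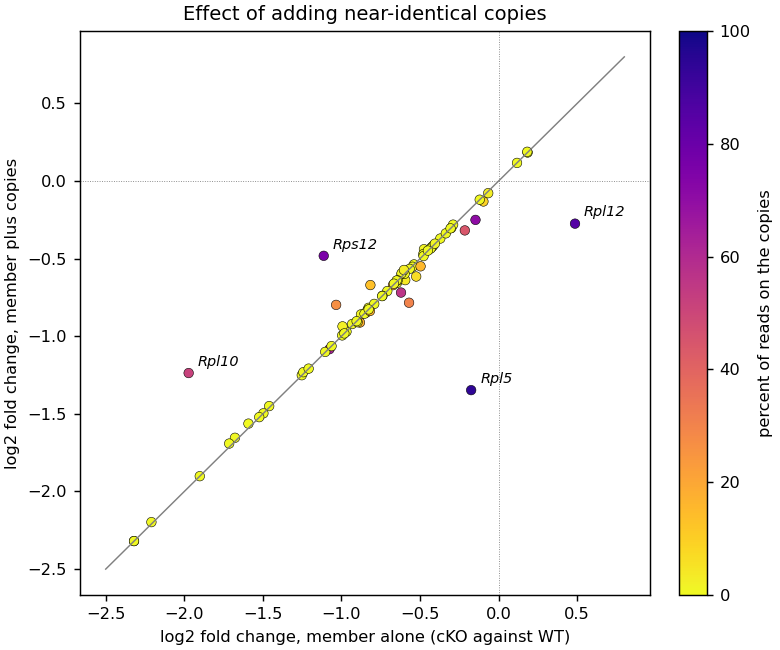
Fitted log2 fold change of each of 79 tested members with its near-identical copies added (vertical) against the member alone (horizontal), coloured by the percent of reads on the copies; the grey line marks equal values. Most members lie on the line, Rpl5 falls from -0.17 to -1.35, Rpl12 crosses 0, and Rpl10 and Rps12 move up.

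Ribosomal proteins outside the naming rule were measured in the same 8 libraries, so they are not a separate check on the members. Of 7 such genes, Fau, Rack1 and Rps3a1 among them, 7 were lower, against 52.7% of all tested genes, with a median of -0.79 on the log2 scale. In 7 of them cKO 2 lay below all WT libraries, against 24.5% of all tested genes. The median was -0.23 without cKO 2. Rack1, a scaffold on the small subunit, had 1375 and 343 CPM in cKO and from 1019 to 2591 CPM in WT. Fau, which encodes a ubiquitin-like protein fused to a small subunit protein, had 428 and 82.0 CPM in cKO and from 239 to 912 CPM in WT.

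Other TOP mRNAs, mostly translation factors, were measured for 17 of 19 listed genes. All 17 were lower, against 52.7% of all tested genes, with a median of -1.20 (-0.56 without cKO 2). In edgeR 0 passed, and DESeq2 called 4 lower. Over all genes given an adjusted p, DESeq2 called 3.08% lower. Eef1a1, the factor that delivers aminoacyl-tRNA, had 1010 and 377 CPM in cKO, 636 CPM in WT 1, 2204 and 2265 CPM in WT 2 and 3, and from 5144 to 6779 CPM in WT 4 to 6. As for Rplp0 and Rpl41, the 3 highest libraries were WT 4 to 6 and the lowest was cKO 2. Genes that build ribosomes stood nearer the median of all genes. Of 30 assembly factors 16 were lower and 14 higher, with a median of -0.13, and 1 was called by DESeq2. For 14 genes of RNA polymerase I and its factors, 9 were lower and the median was -0.18. Among 16 regulators of ribosomal protein synthesis, such as Mtor and Larp1, 7 were lower and the median was 0.03. The 13 mitochondrial genome protein genes were all higher, against 47.3% of all tested genes, with a median of 1.34. DESeq2 called 5 of them higher while edgeR called 0. Among the 7757 genes given an adjusted p, DESeq2 called 30 higher.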

How the data were processed

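Polyadenylated RNA of 8 libraries was measured, per the labels' protocols. The authors deposited 1 table per library with estimated counts and TPM per gene row. HISAT2, Salmon and the build mm10 are listed, per the submitters' processing notes, with no version. Which annotation was used is not stated there. The deposited length column, per the file headers a transcript length, was far shorter than the annotated transcripts of the members (median 163 against 910 bases), so it was not used.

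Estimated counts were rounded to whole numbers. Rows without a gene name (1548 of 36635, from 0.435% to 0.739% of reads) were left out. Genes were filtered with filterByExpr (minimum count 10, minimum total 15), scaled by TMM and compared with edgeR 4.0.16 (quasi-likelihood test, group as the only term, R 4.3.3), with Benjamini-Hochberg adjustment over 15102 genes and a threshold of 0.05. CPM of single genes are after TMM, and shares are of plain read totals. Log2 fold changes are cKO against WT. The fit was tested on simulated data. Alternatives were DESeq2 1.42.0 and its size factors, no TMM factor, no filter, limma 3.58.1 (voom with quality weights, and log2(TPM + 1)), the replicate number as a block, a covariate for detected genes, mitochondrial genome genes removed, libraries numbered 1 and 2 alone, and leaving out each library. Adding near-identical copies (blastn 2.17.0, GENCODE M21 transcripts on GRCm38) was chosen after seeing the data. Coordinates are from that annotation.

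Members and lists were chosen with earlier results of these data known. Named members are the 5 with the highest mean TPM per subunit, the 3 with the smallest p per direction and subunit, those with a role of their own, restricted paralogs, and members without overlap between groups; some are not reported here. The method marks no strand and no molecules, so intervals cover counting error only. A gene with no read may have had 3, or 0.636 to 4.61 CPM per library.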

Additional observations from a re-analysis of the deposited data

Results flagged for a closer look

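A set of 30 values over the 6 WT libraries was examined for a library far from the others, and chance alone marks about 1 in 20 such groups. In 7 of 30 the highest library stood apart. WT 2 did so for the share of reads on all members (14.4%), for the share on the large subunit (8.89%), and for Rpl13a (5001 CPM), Rpl36 (4752 CPM), Rps18 (3266 CPM) and Rps6 (2525 CPM). These 6 values share a library and are not independent. WT 6 did so for Rps4l (117 CPM), the only member whose groups did not overlap in CPM.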

How the results depend on the processing

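Which library stood for cKO decided the sizes given above, and the cause was not tested. Leaving out each library in turn, the large subunit median ran from -1.91 to -0.080 and the small from -2.32 to -0.21, the log2 ratio of summed reads from -1.58 to -0.069, and the difference between subunits in log2 ratio from -0.26 to 0.068, the sign turning without cKO 2. Genes called over the whole table ranged from 0 to 1. No filter on low counts gave 1 member and 478 genes called, DESeq2 4 and 269, and limma on log2(TPM + 1) 5 genes. Detected genes as a covariate brought the small subunit median to -0.21. In deposited TPM the subunit difference was -0.19. With a replicate block 0 members and 1 gene were called, and the subunit medians were -0.96 (large) and -1.07 (small), against -0.95 and -1.26 in limma-voom. In the block fit WT 3 to 6 each stood alone under their number, so the difference came from the libraries numbered 1 and 2. The shared numbers are not stated to pair libraries, and deviations of same-numbered libraries correlated at -0.29 and -0.17. Adding near-identical copies turned Rpl12 to -0.27. The replicate block and the fit on the libraries numbered 1 and 2 alone draw the difference from the same libraries. They are therefore not separate checks. Single members turned sign in both, given in that order: Rpl12 to -0.12 and -0.020, Rpl14 to -0.72 and -0.57, Rpl36 to -0.64 and -0.53, and Rpl5 to 0.030 and 0.13. Leaving out each library in turn, Rpl14 ran from -0.61 (without cKO 1) to 0.63, Rpl36 from -0.60 (without cKO 1) to 0.66, Rpl5 from -0.63 to 0.054 (without cKO 2), Rps15 from -1.28 to 0.46, Rps18 from -1.19 to 0.49, Rps6 from -1.83 to 0.080 and Rpsa from -1.38 to 0.23, the last 4 turning without cKO 2. Without WT 2, Rps15 was at 0.23 and Rps18 at 0.16. Rps18 was at 0.0068 with DESeq2's size factors and 0.0073 in DESeq2, and Rpl39l at 1.79 in limma-voom. Depth limits cKO 2 most, where 3 reads are 4.61 CPM.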
